A study of Mus musculus with 14 samples.

Results

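Live GFP-positive cells sorted from ileal crypts were set against whole ileal crypts. The comparison holds the 3 libraries titled ileum GFP+ and the 2 titled ileum WT, taken by title, which are 5 of the 14 libraries of the series. The GFP cells came from Atoh1GFP/GFP mice, in which both alleles make a fusion of ATOH1 with green fluorescent protein. Per the design text the fusion protein works and these mice are phenotypically normal. Cells were kept by flow cytometry if they were GFP-positive and negative for 7AAD, a dye that enters dead cells. The WT crypts came from Atoh1 f/+; Vil CreERT2 mice, so the group called WT carries 1 floxed Atoh1 allele and an inducible Cre driven by the Villin promoter, which is active in the gut epithelium. These mice were 6 to 8 weeks old. No age is given for the Atoh1GFP/GFP mice, and the labels name no treatment for either group. Also used were the 5 colon libraries of the same kinds (3 GFP, 2 WT) and 2 ileum KO libraries, which are crypts of Atoh1 f/f; VilCreERT2 mice aged 6 to 8 weeks, whose Atoh1 alleles are both floxed. The labels do not say that replicates came from separate animals, so p-values measure the spread between these libraries, which may be technical. Genotype, Cre, sorting and cell type all differ between the groups and cannot be told apart.

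ATOH1 is a basic helix-loop-helix transcription factor that directs dividing crypt cells into the secretory lineages of the gut. Its messenger RNA is held down by Notch signalling through HES1, and a cell that keeps ATOH1 presents Delta ligands to its neighbours, which then become absorptive. Goblet cells secrete mucus, Paneth cells at the crypt base secrete lysozyme and defensins, and enteroendocrine cells secrete hormones. Whole crypts hold all of these as well as stem cells, dividing progenitors, enterocytes and whatever immune and stromal cells remain attached, so WT crypts also contain cells of the kind that was sorted.

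Gene counts were 7478418 to 11885359 per GFP library and 9645245 to 10426027 per WT library. The libraries differed in more than messenger RNA. The 2 mitochondrial ribosomal RNAs took 30.0 to 35.9% of gene counts in GFP cells and 0.169 to 0.219% in WT crypts. Reads outside genes made up 52.3, 27.8 and 31.3% of uniquely placed reads in GFP 1, 2 and 3, and 11.7 and 9.30% in WT 1 and 2. The labels give the same extraction and library text for all samples, so a difference in library preparation beyond sorting is seen here only through the RNA classes described further on. Levels are given as CPM, gene counts scaled to a common library size with TMM factors. A gene was called where the quasi-likelihood F-test of edgeR gave a Benjamini-Hochberg adjusted p under 0.05.

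**Figure D1:**
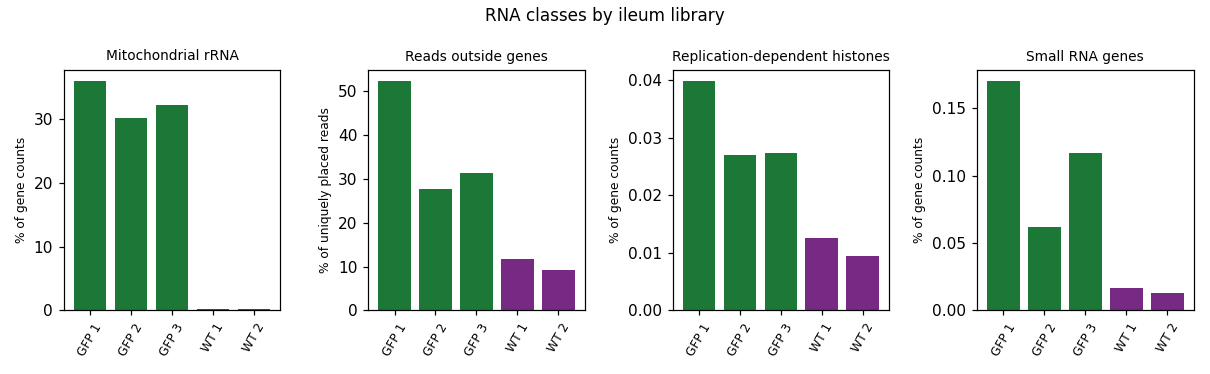
Share of reads in 4 RNA classes (y axis, percent) in each ileum library (x axis, GFP libraries in green to the left of WT libraries in purple). All 3 GFP bars stand above both WT bars in each panel, and GFP 1 has the highest share outside genes at 52.3%.

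Libraries of 1 group were not always alike, and this bears on what follows. GFP 1 was below GFP 2 and GFP 3 for 25 of 25 goblet genes and 24 of 25 endoplasmic reticulum folding genes, and above both for 24 of 35 cell cycle genes. Over all 15274 genes tested it was below both for 5958 and above both for 6031. The WT libraries differed several fold in tuft genes, whose summed level was 40.7 CPM in WT 1 and 523 CPM in WT 2, and in immune genes, which summed to 713 CPM in WT 1 and 95.1 CPM in WT 2. Results that rest on 1 of these libraries are given with and without it. The names of the deposited tables give the GFP libraries date-like numbers, that of GFP 1 in an earlier month than those of GFP 2 and GFP 3, and give the WT libraries running numbers. What these mark is not stated. Each kind of number holds 1 group, so a difference in handling that goes with them and the difference between groups cannot be told apart.

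Of the 15274 genes tested, 3762 were called higher in GFP cells (24.6%) and 4296 lower (28.1%), with a median log2 difference of -0.06 over all genes. The number at an unadjusted p under 0.05 was 8981. The counts of called members that follow are read against those shares. For 4725 of the 15274 genes every GFP library lay above both WT libraries, and for 5186 every GFP library lay below both. A lack of overlap between the groups was therefore common over all genes, and statements of it that follow are read against these numbers. In bulk libraries, fewer cells of a type and less RNA per cell cannot be told apart. The lists used to group the genes had 666 entries named by symbol, of which 657 were matched to the count tables.

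Atoh1 itself rose in the sorted cells. Its level was 195, 323 and 296 CPM in the GFP libraries, against 41.0 and 39.5 CPM in the WT libraries (log2 difference 2.75 ± 0.25, SE, adjusted p = 1.6e-06). The lowest GFP library was above the highest WT library by several fold. In ileum KO crypts Atoh1 was at 1.02 and 0.526 CPM. The gene's level followed the labels in all 7 ileum libraries. The cells were sorted on the ATOH1 fusion, and both Atoh1 alleles are floxed in KO mice. This order was therefore set by sorting and genotype, and it checks only that the libraries match their labels.

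Of the 21 Atoh1 and Notch pathway genes tested, 6 were called higher (24.6% over all genes) and 6 lower (28.1% over all genes), with a median log2 difference of -0.38 against -0.06 over all genes. With the GC content and length trend of each library removed, the list median was -0.035, against 0.00046 over all genes. Atoh1, on whose product the cells were sorted, is 1 of the 6 called higher. The Delta ligands rose, whereas the ligand gene Jag2 and the called receptors and targets fell. The ligand Dll1 had 78.3, 191 and 124 CPM in the GFP libraries, against 24.5 and 19.9 CPM in the WT libraries (log2 difference 2.56 ± 0.48, SE, adjusted p = 0.00098), and Dll4 had 29.8, 54.0 and 45.7 CPM in GFP cells and 23.8 and 14.8 CPM in WT crypts (log2 difference 1.16 ± 0.29, SE, adjusted p = 0.0039). No GFP library overlapped a WT library for either ligand. Dll3 also rose, at a level of at most 1.59 CPM (log2 difference 2.76 ± 0.83, SE, adjusted p = 0.013), and so did Mib1 (log2 difference 0.82 ± 0.20), the ubiquitin ligase that activates Delta ligands in the sending cell, and the coactivator gene Maml1 (0.41 ± 0.16). Jag2 (-1.5) was not called without WT 1, nor with the GC content and length trend removed, where parentheses hold the log2 differences without those libraries. Dll4 (0.85) was not called without WT 2. Dll3 (2.04) was not called without WT 1. Maml1 (0.33 to 0.45) was not called without GFP 1, GFP 2, GFP 3, WT 1 or WT 2, nor with the most abundant genes left out of library sizes, no filter on low counts, only the 5 libraries fitted or only the 7 ileum libraries fitted.

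The Notch target Hes1, which encodes the repressor of Atoh1, had 18.9, 10.9 and 9.57 CPM in the GFP libraries, against 32.8 and 37.8 CPM in the WT libraries (log2 difference -1.44 ± 0.25, SE, adjusted p = 0.00037). Nrarp, a target that feeds back on Notch signalling, had 23.0, 7.71 and 5.43 CPM in the GFP libraries, against 61.1 and 87.4 CPM in the WT libraries (log2 difference -2.65 ± 0.83, SE, adjusted p = 0.023). Both were lower in all 3 GFP libraries than in either WT library, and in both GFP 1 was the highest of the sorted libraries. Notch2, Rfng, Jag2 and Notch3 fell as well (log2 differences -1.10, -1.14, -1.78 and -3.32). The receptor gene Notch1 was not called (adjusted p = 0.15): it had 35.2, 5.14 and 5.71 CPM in GFP cells and 32.8 and 37.0 CPM in WT crypts, so GFP 1 lay among the crypt libraries and the other GFP libraries lay far below. The other 8 members were not called. With the GC content and length trend of each library removed, 2 members rather than 6 were called lower, and without WT 1 there were 3. Nrarp (-2.91 to -2.30) was not called without GFP 2, GFP 3, WT 1 or WT 2, nor with the GC content and length trend removed. Notch2 (-0.82 to -0.79) was not called without GFP 2 or WT 1, nor with only the 5 libraries fitted. Rfng was not called with the GC content and length trend removed. Notch3 (-3.68 to -0.61) was not called without GFP 2, GFP 3 or WT 2, nor with only the 7 ileum libraries fitted or the GC content and length trend removed. Notch1 (-2.68) was called lower without GFP 1, and with no filter on low counts.

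Of the 18 secretory transcription factor genes, 15 rose and none fell (median 1.74). Spdef, which drives goblet and Paneth maturation, had 116, 282 and 259 CPM in the GFP libraries, against 42.3 and 92.1 CPM in the WT libraries (log2 difference 1.71 ± 0.40, SE, adjusted p = 0.0037). Gfi1, which separates goblet and Paneth from endocrine fates, had 47.0, 102 and 77.5 CPM in the GFP libraries, against 11.8 and 12.2 CPM in the WT libraries (log2 difference 2.65 ± 0.37, SE, adjusted p = 7.9e-05). All 3 GFP libraries lay above both WT libraries for each, and GFP 1 was the lowest of the 3. Bhlha15 (Mist1), which scales the secretory apparatus, had 109.8, 184 and 179 CPM in GFP cells and 28.8 and 63.6 CPM in WT crypts (log2 difference 1.77 ± 0.34, SE, adjusted p = 0.00081).

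Genes of the ETO family of corepressors had the largest and the next largest rise of this list. Runx1t1 had 12.8, 25.5 and 17.7 CPM in the GFP libraries, against 0.609 and 0.332 CPM in the WT libraries (log2 difference 5.27 ± 0.60, SE, adjusted p = 1.0e-05), and Cbfa2t3 had 123, 154 and 144 CPM in the GFP libraries, against 13.8 and 19.5 CPM in the WT libraries (log2 difference 3.07 ± 0.23, SE, adjusted p = 2.6e-07). Their relative Cbfa2t2 rose by less (1.12 ± 0.17). Runx1t1 was below 1 CPM in both WT libraries and above 12 CPM in every GFP library.

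The transcription factors CREB3L1 and CREB3L4 are bound to the endoplasmic reticulum membrane. Creb3l1 had 327, 705 and 745 CPM in the GFP libraries, against 72.7 and 115 CPM in the WT libraries (log2 difference 2.66 ± 0.33, SE, adjusted p = 2.2e-05), and Creb3l4 had 97.4, 171 and 194 CPM in GFP cells and 21.5 and 40.1 CPM in WT crypts (log2 difference 2.33 ± 0.38, SE, adjusted p = 0.00028). Xbp1 and Atf6, of the stress response of that organelle, rose by 1.63 ± 0.23 and 1.22 ± 0.21 on the log2 scale. Of the forkhead genes, Foxa2 (2.15 ± 0.32) and Foxa3 (1.91 ± 0.27) rose, while Foxa1 was not called (adjusted p = 0.20) at 70.3, 77.6 and 78.7 CPM in GFP cells and 54.9 and 70.0 CPM in WT crypts. Sox9, Klf4 and Tcf7l2 rose too (0.86, 0.83 and 1.87). Foxa1 was 1 of 3 members that were not called. Sox9 (0.43 to 0.75) was not called without GFP 1 or WT 1, nor with only the 5 libraries fitted. Klf4 (0.73) was not called without WT 2, nor with only the 5 libraries fitted. Foxa1 was called higher with the GC content and length trend removed.

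**Figure D2:**
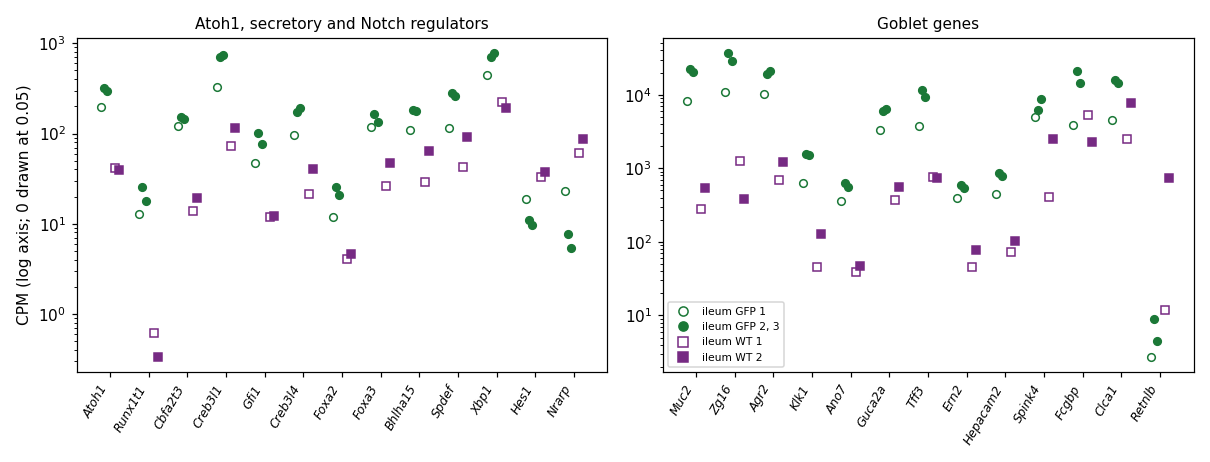
Level of regulators (left) and goblet genes (right) in each ileum library, in CPM on a log axis; GFP libraries are green circles drawn to the left of the purple squares of WT libraries, with replicate 1 open. GFP and WT points do not overlap for Atoh1, Muc2 or Spdef, while Fcgbp and Clca1 overlap and Retnlb is set by WT 2 at 749 CPM.

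Goblet genes had the highest median of the cell type lists: 21 of 25 were called higher and 1 lower, with a median log2 difference of 2.44. ATOH1 belongs to a family of proteins that bind E-boxes, and the promoters of 4 raised members are shown, chosen because they hold the E-box CAGCTG. Hepacam2 was chosen after its values were seen. The sequences are the 250 bases before the gene start from RefSeq (GRCm38.p6, a later build than that of the counts), 5′ to 3′ on the gene's strand, with CAGCTG in capitals.
Muc2 promoter (chr7:141690090-141690339, plus strand): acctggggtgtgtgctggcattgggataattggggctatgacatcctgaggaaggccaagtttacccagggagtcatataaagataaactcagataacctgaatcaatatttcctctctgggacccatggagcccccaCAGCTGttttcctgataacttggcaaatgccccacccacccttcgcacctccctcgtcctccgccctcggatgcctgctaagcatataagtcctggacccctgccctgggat
Fcgbp promoter (chr7:28070986-28071235, plus strand): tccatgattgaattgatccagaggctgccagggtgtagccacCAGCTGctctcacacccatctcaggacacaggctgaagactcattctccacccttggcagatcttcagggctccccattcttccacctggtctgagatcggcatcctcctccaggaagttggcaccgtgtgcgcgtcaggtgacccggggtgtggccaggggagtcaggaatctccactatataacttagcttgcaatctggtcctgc
Guca2a promoter (chr4:119637482-119637731, plus strand): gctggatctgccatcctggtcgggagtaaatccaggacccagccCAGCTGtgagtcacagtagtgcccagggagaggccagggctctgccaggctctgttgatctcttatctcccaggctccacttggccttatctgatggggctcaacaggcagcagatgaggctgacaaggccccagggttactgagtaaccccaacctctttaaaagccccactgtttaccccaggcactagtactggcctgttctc
Hepacam2 promoter (chr6:3494499-3494748, minus strand): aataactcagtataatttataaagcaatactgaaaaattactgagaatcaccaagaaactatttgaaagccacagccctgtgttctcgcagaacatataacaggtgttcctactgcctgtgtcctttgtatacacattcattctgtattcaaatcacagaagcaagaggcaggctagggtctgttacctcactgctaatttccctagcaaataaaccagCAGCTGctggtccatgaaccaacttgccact
Fcgbp (1.27 to 1.73) was not called without GFP 2, GFP 3 or WT 2, nor with only the 5 libraries fitted or only the 7 ileum libraries fitted.

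The sequence CAGCTG reads the same on both strands, so 1 search covers both. Of the 13 goblet genes with a promoter in that table, 6 held it in the 250 bases before any start (46.2%), against 1530 of 10606 genes tested (14.4%). The share was lower for secretory transcription factor genes, with 3 of 14 (21.4%). These differences between lists were not tested. Among genes called higher the share was 14.2%, and among those called lower 14.6%. Both shares were thus close to that of all genes. A match is a run of letters and not a measured binding site.

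Muc2, the gel-forming mucin of the gut, had 8232, 22029 and 20312 CPM in the GFP libraries, against 283 and 541 CPM in the WT libraries (log2 difference 5.36 ± 0.71, SE, adjusted p = 5.1e-05). Zg16, a lectin of the mucus layer, had 10756, 36880.4 and 28864 CPM in the GFP libraries, against 1245 and 381 CPM in the WT libraries (log2 difference 4.97 ± 0.77, SE, adjusted p = 0.00020). Agr2, a disulfide isomerase needed to make MUC2, had 10356, 19365 and 20669 CPM in the GFP libraries, against 699 and 1210.0 CPM in the WT libraries (log2 difference 4.14 ± 0.45, SE, adjusted p = 7.5e-06). GFP 1 was the lowest of the sorted libraries for each, and still exceeded the higher WT library several fold.

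The trefoil peptide gene Tff3 had 3773, 11502 and 9249.7 CPM in the GFP libraries, against 772 and 731 CPM in the WT libraries (log2 difference 3.44 ± 0.50, SE, adjusted p = 9.0e-05). Guca2a, which encodes the peptide guanylin, had 3298, 6043 and 6379.6 CPM in GFP cells and 365 and 557 CPM in WT crypts (log2 difference 3.51 ± 0.39, SE, adjusted p = 8.1e-06). The kallikrein gene Klk1, the channel-like gene Ano7 and the goblet stress sensor Ern2 rose by 3.82 ± 0.53, 3.59 ± 0.26 and 3.03 ± 0.29 on the log2 scale. Smaller rises were those of Hepacam2 (2.99 ± 0.31) and Spink4 (2.19 ± 0.58). Spink4 was not called with only the 5 libraries fitted.

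Spink4 also showed the gap between the WT libraries, with 4999, 6285 and 8617 CPM in the GFP libraries, against 413 and 2489 CPM in the WT libraries. Fcgbp, the gene of a mucus protein, was called (log2 difference 1.79 ± 0.66, SE, adjusted p = 0.038) although the groups overlapped: it had 3919.5, 21156 and 14287 CPM in GFP cells and 5284 and 2290.4 CPM in WT crypts. Clca1, a protease of the mucus, was not called (adjusted p = 0.15) at 4477, 15763 and 14431 CPM in GFP cells and 2488 and 7641 CPM in WT crypts. Capn9 and Atp2c2 were not called either. Leaving out any 1 library, 20 or 21 goblet genes were called higher. Clca1 was called higher with no filter on low counts. Atp2c2 was called higher with the GC content and length trend removed.

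Retnlb, the gene of a goblet cell antimicrobial peptide, was the 1 member called lower (log2 difference -6.09 ± 1.37, SE, adjusted p = 0.0053). It had 2.72, 9.06 and 4.57 CPM in the GFP libraries, against 12 and 749 CPM in the WT libraries. WT 1 was just above the highest GFP library and WT 2 was far above all of them; without WT 2 no goblet gene was called lower. Retnlb (-1.12) was not called without WT 2.

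Enzymes that build mucin glycans rose in part: 17 of 31 tested were called higher and 7 lower (median 0.98). C1galt1c1, the chaperone of the core 1 synthase, had 246, 488 and 455 CPM in the GFP libraries, against 52.8 and 98.6 CPM in the WT libraries (log2 difference 2.39 ± 0.35, SE, adjusted p = 9.4e-05), and Gcnt3, which builds branched cores, had 605, 850.4 and 910.1 CPM in GFP cells and 138 and 152 CPM in WT crypts (log2 difference 2.44 ± 0.26, SE, adjusted p = 5.3e-06). Neither gene overlapped between the groups. Galnt5 (2.37 ± 0.39) and Galnt7 (1.91 ± 0.27), of the family that adds the first sugar, rose, and so did the sialyltransferase genes St6gal1 (2.92 ± 0.41), St3gal1 (2.66 ± 0.52) and St6galnac2 (2.49 ± 0.24).

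Other glycan enzymes fell. St3gal4 had 62.7, 90.7 and 86.9 CPM in the GFP libraries, against 1049 and 1059.7 CPM in the WT libraries (log2 difference -3.72 ± 0.21, SE, adjusted p = 3.5e-08), and the fucosyltransferase gene Fut2 had 6.98, 9.18 and 10.4 CPM in GFP cells and 59.9 and 87.8 CPM in WT crypts (log2 difference -3.05 ± 0.20, SE, adjusted p = 1.2e-07). Both WT libraries were far above all GFP libraries in each. B4galnt3, Gcnt1 and Galnt2 fell as well (-3.59, -3.29 and -1.44). The fall of St6galnac6 rested on unequal crypt libraries, with 4.09, 7.47 and 2.28 CPM in GFP cells and 109.8 and 11.1 CPM in WT crypts (log2 difference -3.69 ± 1.26, SE, adjusted p = 0.034). Another 7 members were not called. St6galnac6 (-4.26 to -1.25) was not called without GFP 1, GFP 2, GFP 3 or WT 1, nor with only the 7 ileum libraries fitted or the GC content and length trend removed.

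Genes of the secretory machinery had smaller median differences than goblet genes. Of 21 genes for protein entry into the endoplasmic reticulum, 14 were called higher and none lower (median 0.92); without WT 1 there were 9. Ssr3, a subunit of the translocon-associated complex, had 899, 1179 and 1242 CPM in the GFP libraries, against 317 and 422 CPM in the WT libraries (log2 difference 1.58 ± 0.27, SE, adjusted p = 0.00024). The channel subunit gene Sec61b had 117, 117 and 143 CPM in GFP cells and 36.2 and 44.5 CPM in WT crypts (log2 difference 1.64 ± 0.18, SE, adjusted p = 7.4e-06), whereas Sec61a1, the pore itself, was not called (adjusted p = 0.46) at 389, 612 and 679 CPM in GFP cells and 504 and 471 CPM in WT crypts. The signal peptidase gene Sec11c rose by 1.37 ± 0.21. Sec61a1 (0.41) was called higher without GFP 1, and with the GC content and length trend removed.

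Of 25 folding genes, 10 rose and 1 fell (median 0.56). Pdia5, a disulfide isomerase, had 131, 348 and 350.4 CPM in the GFP libraries, against 49.5 and 47.5 CPM in the WT libraries (log2 difference 2.51 ± 0.34, SE, adjusted p = 4.7e-05), and Fkbp11, a prolyl isomerase of secretory cells, had 49.9, 105 and 101 CPM in GFP cells and 7.39 and 21.8 CPM in WT crypts (log2 difference 2.55 ± 0.48, SE, adjusted p = 0.00096). These stood clear of the WT libraries in all 3 GFP libraries. Txndc5 and Hsp90b1 rose by 1.48 ± 0.33 and 1.21 ± 0.33. The abundant chaperone genes Hspa5 and Pdia3 were not called. Hspa5 had 847, 2051 and 2089 CPM in GFP cells and 1102 and 1139.9 CPM in WT crypts. Ero1l fell (-0.74 ± 0.17). The count of folding genes called higher moved to 19 without GFP 1, and to 6 without GFP 2, GFP 3 or WT 1. Hspa5 (0.89) and Pdia3 (0.83) were called higher without GFP 1.

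Of 22 genes of the unfolded protein response and of degradation at the endoplasmic reticulum, 12 rose and 4 fell (median 0.51), with 7 called higher without WT 1. Beside Ern2, Xbp1 and Atf6, the rises included Ern1 (1.01 ± 0.19) and the mannosidase-like gene Edem1 (0.77 ± 0.21). Trib3, Atf6b, Os9 and Derl1 fell (-2.76, -1.12, -0.86 and -0.43). Edem1 (0.74) was not called without WT 1. Atf6b was not called with the GC content and length trend removed. Os9 was not called with only the 5 libraries fitted or the GC content and length trend removed. Derl1 (-0.37) was not called without WT 1, nor with only the 5 libraries fitted.

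For transport between the endoplasmic reticulum and the Golgi, 13 of 27 genes rose and 3 fell (median 0.51). The KDEL receptor genes, whose products return escaped chaperones, differed among themselves. Kdelr3 had 59.6, 124 and 114 CPM in the GFP libraries, against 14.3 and 25.8 CPM in the WT libraries (log2 difference 2.31 ± 0.32, SE, adjusted p = 6.9e-05), and Kdelr2 had 646, 783 and 959 CPM in GFP cells and 182 and 199 CPM in WT crypts (log2 difference 2.06 ± 0.21, SE, adjusted p = 3.7e-06). Kdelr1, named after its values were seen, had a log2 difference of -0.39 ± 0.16 (adjusted p = 0.060) and was not called. Of the coat genes, Sec24a rose (1.31 ± 0.18) and Sec23a fell (-1.52 ± 0.18). Kdelr1 (-0.54) was called lower without GFP 3, and with the most abundant genes left out of library sizes.

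Of 26 genes of granule movement and release, 17 rose and 2 fell (median 0.90). The synaptotagmin-like genes Sytl2 and Sytl4, whose products tether granules through RAB27, had log2 differences of 2.71 ± 0.26 and 2.59 ± 0.21. Sytl2 had 431, 561 and 490.0 CPM in the GFP libraries, against 60.1 and 90.8 CPM in the WT libraries. The melanophilin gene Mlph had 330.2, 516 and 460.1 CPM in GFP cells and 96.7 and 158 CPM in WT crypts (log2 difference 1.78 ± 0.24, SE, adjusted p = 5.0e-05), and Rab27b had 97.1, 209 and 171 CPM in GFP cells and 29.9 and 63.5 CPM in WT crypts (log2 difference 1.77 ± 0.37, SE, adjusted p = 0.0017). Every GFP library was above both WT libraries for these 3 genes. Unc13d and Rab3b were the 2 that fell; Rab3b had no count in any GFP library against 1.22 and 0.748 CPM in WT crypts, at least 6.97-fold lower in GFP cells if the GFP libraries together held the 3 counts that a count of 0 allows.

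Paneth genes were among the most abundant in the sorted cells, yet few were called in the fit of all 14 libraries. Of 20 tested, 3 were called higher and none lower (median 1.09). Lysozyme, Lyz1, had 32788, 57047 and 42154 CPM in the GFP libraries, against 5567 and 4966 CPM in the WT libraries, and its log2 difference of 3.06 ± 1.48 was not called (adjusted p = 0.11) although the groups did not overlap. The defensin genes Defa24 and Defa30 had 12900.1, 8479 and 9624 CPM in GFP cells and 1747 and 10505 CPM in WT crypts, and 11142, 6080.4 and 7653 CPM in GFP cells and 949 and 3648 CPM in WT crypts. Defa24 overlapped and Defa30 did not, and neither was called. Defensin genes are near-identical copies, so reads may have been shared among them or dropped, and their levels are uncertain. Lyz1 was called higher with no filter on low counts, only the 5 libraries fitted, only the 7 ileum libraries fitted or the DESeq2 Wald test. Defa30 was called higher with no filter on low counts or only the 7 ileum libraries fitted.

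The 3 called members were Defa29 (log2 difference 3.78 ± 1.17, SE, adjusted p = 0.023), Copz2 (2.38 ± 0.29) and Nupr1 (1.05 ± 0.32), of which Nupr1 overlapped between the groups. Ang4, which encodes a Paneth cell ribonuclease, and Itln1, a lectin gene, were spread as widely between the WT libraries as between the groups: Ang4 had 2547, 2149.9 and 2109 CPM in the GFP libraries, against 267 and 5167 CPM in the WT libraries. The Paneth list summed to 76696 to 94367 CPM in GFP cells, 13000 CPM in WT 1 and 51836 CPM in WT 2. The number called higher was 1 without WT 1 and 5 without WT 2. It was 8 when only the 5 libraries were fitted and 9 with the 7 ileum libraries. The fit of all 14 libraries takes 1 spread per gene over all groups, colon included. In colon GFP cells Lyz1 had 504 ± 804 CPM and Defa24 105 ± 176 CPM, whereas Ang4 had 98.9 ± 21.2 CPM (SD, n = 3). The cause of the differing numbers was not tested. Defa29 (3.67 to 3.87) was not called without WT 1 or WT 2. Nupr1 (0.81 to 0.86) was not called without GFP 2 or WT 1.

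**Figure D3:**
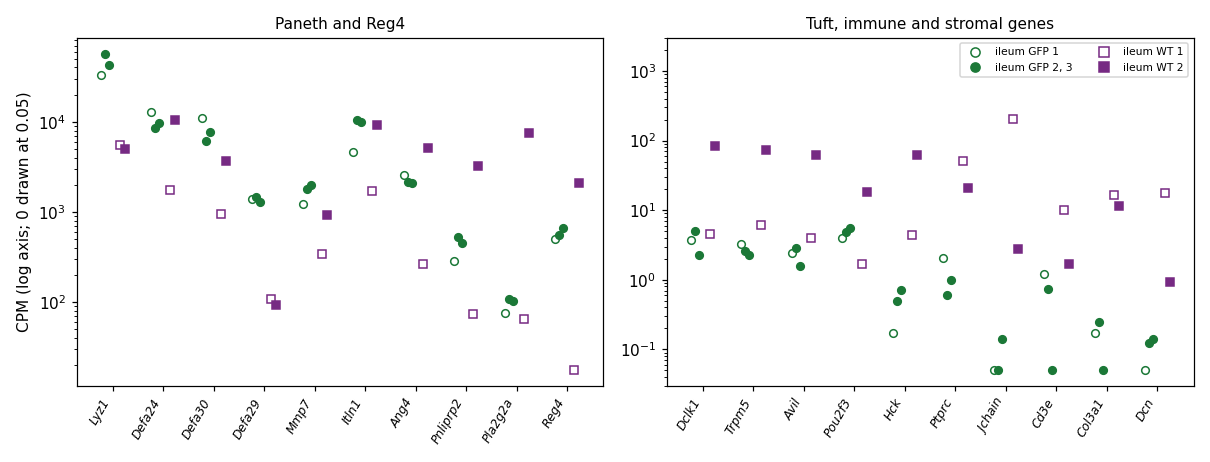
Level in each ileum library, in CPM on a log axis with values of 0 drawn at 0.05, of Paneth genes with Reg4 (left) and of tuft, immune and stromal genes (right); GFP libraries are green circles to the left of the purple WT squares, with replicate 1 open. WT 2 is the highest library for Dclk1, and WT 1 for Jchain and Dcn.

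Enteroendocrine genes were not raised as a group. Of 15 hormone and serotonin genes tested, 2 were called higher and 10 lower (median -2.14). The glucagon precursor Gcg had 9.71, 2.08 and 5.14 CPM in the GFP libraries, against 45.8 and 42.5 CPM in the WT libraries (log2 difference -3.01 ± 0.42, SE, adjusted p = 9.5e-05), and chromogranin A, Chga, had 1.36, 5.88 and 1.86 CPM in GFP cells and 30.8 and 31.1 CPM in WT crypts (log2 difference -3.29 ± 0.43, SE, adjusted p = 4.3e-05). Neurotensin, Nts, had 0, 0.612 and 0.428 CPM in GFP cells and 32.0 and 20.6 CPM in WT crypts (log2 difference -6.09 ± 0.58, SE, adjusted p = 2.6e-06). All 3 were lower in each GFP library than in either WT library. Pyy, Sst and Cck fell too (-4.94, -5.02 and -4.13).

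The 2 that rose were Sct, the secretin gene, and Slc18a1, which encodes a vesicular monoamine transporter. Sct had 65.7, 101 and 133 CPM in the GFP libraries, against 16.6 and 11.1 CPM in the WT libraries (log2 difference 2.85 ± 0.61, SE, adjusted p = 0.0029), and Slc18a1 had 45.3, 67.0 and 61.0 CPM in GFP cells and 8.61 and 16.7 CPM in WT crypts (log2 difference 2.19 ± 0.31, SE, adjusted p = 5.9e-05). Neither overlapped between the groups, and both therefore went against the other hormone genes.

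Of 14 endocrine transcription factor genes tested, 2 rose and 6 fell (median -1.59), with 3 called lower without WT 1. Prox1 had 62.7, 81.2 and 74.5 CPM in the GFP libraries, against 3.12 and 8.56 CPM in the WT libraries (log2 difference 3.65 ± 0.66, SE, adjusted p = 0.00091), and Rfx3 rose by 2.33 ± 0.34. Neurog3, the gene that starts the endocrine programme, was low everywhere and not called (adjusted p = 0.32) at 1.36, 1.22 and 0.286 CPM in GFP cells and 1.45 and 1.83 CPM in WT crypts. Neurod1, Insm1 and St18 fell (-2.06, -1.65 and -2.53), each at under 4 CPM in every ileum library, and so did Sox4, Mnx1 and Etv1. Neurod1 (-1.58) and Etv1 (-3.69) were not called without WT 1. Insm1 (-1.58) was not called without WT 1, nor with only the 5 libraries fitted or the GC content and length trend removed. St18 (-1.93) was not called without WT 2. Mnx1 (-1.25 to -1.11) was not called without GFP 3 or WT 2, nor with the GC content and length trend removed.

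Of 17 endocrine granule genes, 4 rose (23.5%, against 24.6% over all genes) and 5 fell (29.4%, against 28.1%). The list was thus called in each direction about as often as all genes. Its median was -0.68, and -0.33 with the GC content and length trend removed. Cpe, which trims prohormones, had 0.170, 0.245 and 0.571 CPM in the GFP libraries, against 14.5 and 16.5 CPM in the WT libraries (log2 difference -5.50 ± 0.43, SE, adjusted p = 4.0e-07). Scgn had no count in GFP cells against 1.90 and 1.41 CPM in WT crypts. Bex2 and Cryba2 rose (3.05 and 2.89), as did Snap25 and Ptprn2. The count of rises was 1 without GFP 2, GFP 3 or WT 1, and 2 without WT 2. Cryba2 (2.82 to 2.94) was not called without WT 1 or WT 2. Snap25 (1.16 to 2.21) was not called without GFP 2, GFP 3, WT 1 or WT 2, nor with the most abundant genes left out of library sizes, no filter on low counts, protein-coding genes only, the GC content and length trend removed or the DESeq2 Wald test. Ptprn2 (0.53 to 0.93) was not called without GFP 2, GFP 3 or WT 1, nor with only the 5 libraries fitted, only the 7 ileum libraries fitted or the GC content and length trend removed.

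Genes of niche signals made by secretory cells at the crypt base rose in 6 of 12 cases and fell in 2 (median 0.95). Kit, which marks Paneth cells and deep crypt secretory cells, had 346, 454 and 459 CPM in the GFP libraries, against 27.9 and 101 CPM in the WT libraries (log2 difference 2.71 ± 0.48, SE, adjusted p = 0.00063). Egf and Btc, ligands of the EGF receptor, rose by 1.70 ± 0.41 and 1.47 ± 0.30, together with Tgfa, Dll1 and Dll4. Ereg, another ligand of that family, fell (-2.58 ± 0.59), and Wnt11 had no count in GFP cells. Wnt3 was not called (adjusted p = 0.074) at 26.1, 33.5 and 29.7 CPM in GFP cells and 10.1 and 15.2 CPM in WT crypts. Reg4 was not called either, with 499, 549 and 664 CPM in GFP cells and 17.7 and 2073 CPM in WT crypts, where WT 1 was far below and WT 2 far above the sorted cells. Tgfa (0.46 to 0.48) was not called without GFP 2 or WT 1, nor with only the 5 libraries fitted. Ereg (-1.62) was not called without WT 1. Wnt3 was called higher with no filter on low counts, only the 5 libraries fitted, only the 7 ileum libraries fitted, the GC content and length trend removed or the DESeq2 Wald test. Reg4 (-1.88) was called lower without WT 1, and with no filter on low counts. Reg4 (5.0) was called higher without WT 2.

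Tuft genes were lower in GFP cells than in 1 of the crypt libraries. Of 18 tested, 11 were called lower and 1, the taste receptor gene Tas1r3, higher (median -3.46). Dclk1 had 3.75, 5.02 and 2.28 CPM in the GFP libraries, against 4.57 and 84.3 CPM in the WT libraries (log2 difference -3.58 ± 0.99, SE, adjusted p = 0.013), and Trpm5 had 3.24, 2.57 and 2.28 CPM in GFP cells and 6.17 and 72.4 CPM in WT crypts (log2 difference -3.87 ± 0.85, SE, adjusted p = 0.0033). WT 1 lay close to the sorted libraries for both genes and WT 2 stood far above them all. Without WT 2 the median log2 difference of these genes was -0.57, and without WT 1 it was -4.40. Pou2f3, the factor that specifies tuft cells, was not called (adjusted p = 0.28). Dclk1 (-0.31) and Trpm5 (-1.21) were not called without WT 2. Pou2f3 (-1.93) was called lower without WT 1, and with no filter on low counts.

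Stem cell and Wnt target genes were called higher about as often as all genes, and lower less often. Of 21, 6 were called higher (28.6%, against 24.6% over all genes) and 3 lower (14.3%, against 28.1%). The other 12 were not called, and the median was -0.15. Znrf3 had 47.5, 39.7 and 35.5 CPM in the GFP libraries, against 9.45 and 16.3 CPM in the WT libraries (log2 difference 1.67 ± 0.26, SE, adjusted p = 0.00014). Lgr5, the marker of crypt base stem cells, chosen here after its values were seen, was not called (adjusted p = 0.22) at 121, 30.0 and 34.0 CPM in GFP cells and 40.9 and 31.0 CPM in WT crypts, and Olfm4 was not called (adjusted p = 0.39) at 1068, 272 and 265 CPM in GFP cells and 1134 and 1256 CPM in WT crypts. GFP 1 was well above the other sorted libraries for both. Slc12a2, Prom1, Sox9 and Hopx, among the 6, rose by 0.56, 0.64, 0.86 and 0.86 on the log2 scale, and Cdca7, Ephb3 and Lrig1 fell. Without GFP 1, 3 were called higher and 7 lower; without WT 1, 3 were called higher, and without WT 2, 1 was called lower. Slc12a2 (0.36 to 0.63) was not called without GFP 1, GFP 2, GFP 3 or WT 1, nor with the most abundant genes left out of library sizes, no filter on low counts, only the 5 libraries fitted, only the 7 ileum libraries fitted or the GC content and length trend removed. Prom1 (0.42) was not called without WT 2, nor with no filter on low counts, only the 5 libraries fitted or the GC content and length trend removed. Ephb3 (-0.29) was not called without WT 2, nor with only the 5 libraries fitted or the GC content and length trend removed. Lrig1 (-0.45) was not called without WT 2, nor with the GC content and length trend removed. Lgr5 was called higher with no filter on low counts. Olfm4 was called lower with no filter on low counts.

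Cell cycle genes moved in both directions. Of 35, 4 rose and 12 fell (median -0.39). Mki67 had 575, 614 and 595 CPM in the GFP libraries, against 339 and 350.2 CPM in the WT libraries (log2 difference 0.79 ± 0.20, SE, adjusted p = 0.0044), and Tyms, Tk1 and Ube2c rose with it. The MCM helicase genes Mcm2, Mcm5, Mcm6 and Mcm7 fell. Mcm5 had 43.8, 41.9 and 54.4 CPM in GFP cells and 115 and 108 CPM in WT crypts (log2 difference -1.25 ± 0.19, SE, adjusted p = 0.00013). Mcm6 had 92.1, 66.5 and 69.1 CPM in GFP cells and 142 and 131 CPM in WT crypts (log2 difference -0.85 ± 0.15, SE, adjusted p = 0.00034). Ccnd1 and Cdc20 fell by 0.87 and 1.42 on the log2 scale. Top2a was not called. Without WT 1, 1 gene rather than 4 was called higher. Tyms (0.78) and Ube2c (0.63) were not called without WT 1. Tk1 (0.43 to 0.86) was not called without GFP 1, WT 1 or WT 2, nor with only the 5 libraries fitted or only the 7 ileum libraries fitted. Top2a was called lower with the GC content and length trend removed.

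Absorptive genes were lower as a group. Of 23 brush border genes, 18 fell and none rose (median -2.65), and of 23 transporter genes 20 fell and none rose (median -4.02). Sucrase-isomaltase, Sis, had 30.1, 79.2 and 42.5 CPM in the GFP libraries, against 1517 and 1722 CPM in the WT libraries (log2 difference -5.0 ± 0.93, SE, adjusted p = 0.0015). Aminopeptidase N, Anpep, had 121, 257 and 202 CPM in the GFP libraries, against 5264 and 2099 CPM in the WT libraries (log2 difference -4.25 ± 0.55, SE, adjusted p = 5.7e-05). Each GFP library was below both WT libraries by a wide margin.

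Ggt1, Enpep and Espn fell by the largest amounts among the brush border genes (-6.55 ± 0.38, -5.43 ± 0.88 and -5.36 ± 0.33). The falls of Vil1 and Myo1a were smaller. Villin, Vil1, had 377, 802 and 617 CPM in the GFP libraries, against 1695 and 1162 CPM in the WT libraries (log2 difference -1.25 ± 0.27, SE, adjusted p = 0.0017), and Myo1a had a log2 difference of -1.72 ± 0.29. The protocadherin gene Cdhr5 was not called (adjusted p = 0.48) at 331, 789.9 and 716 CPM in GFP cells and 884 and 600.2 CPM in WT crypts. Krt20 was not called either. Krt20 (-1.48 to -1.37) was called lower without GFP 2 or WT 2, and with the most abundant genes left out of library sizes, no filter on low counts or the DESeq2 Wald test.

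Among transporters, the amino acid carrier Slc6a19 had 4.60, 4.41 and 4.0 CPM in the GFP libraries, against 421 and 329 CPM in the WT libraries (log2 difference -6.43 ± 0.35, SE, adjusted p = 3.4e-08). The glucose carrier Slc5a1 had 63.5, 54.0 and 38.0 CPM in the GFP libraries, against 1105 and 867 CPM in the WT libraries (log2 difference -4.25 ± 0.22, SE, adjusted p = 1.9e-08), and the peptide carrier Slc15a1 had 4.77, 3.55 and 3.00 CPM in GFP cells and 199.7 and 161 CPM in WT crypts (log2 difference -5.59 ± 0.24, SE, adjusted p = 7.0e-09). The groups did not overlap for these 3 carriers. Slc26a6, Car4 and Slc2a2 fell by 6.07, 5.93 and 5.82 on the log2 scale.

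Genes of lipid and bile acid handling followed, with 21 of 25 lower and 2 higher (median -3.09). The ileal bile acid carrier Slc10a2 had 0.681, 0.979 and 0.286 CPM in the GFP libraries, against 241 and 97.0 CPM in the WT libraries (log2 difference -7.97 ± 0.69, SE, adjusted p = 5.7e-06). Fabp6, which binds bile acids inside the cell, had 92.8, 72.0 and 85.5 CPM in GFP cells and 2254 and 1069 CPM in WT crypts (log2 difference -4.32 ± 0.79, SE, adjusted p = 0.0012), and Slc51a, a subunit of the export carrier, had 13.6, 14 and 9.85 CPM in GFP cells and 668 and 353 CPM in WT crypts (log2 difference -5.35 ± 0.53, SE, adjusted p = 1.4e-05). All 3 were lower in every GFP library than in either WT library. Apoa4, Rbp2 and Mttp fell by 6.77, 6.45 and 5.16.

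The fatty acid binding gene Fabp2 was an exception. It had 1043, 1438 and 1320.5 CPM in the GFP libraries, against 813 and 712 CPM in the WT libraries (log2 difference 0.73 ± 0.29, SE, adjusted p = 0.045). Apoc2 was the other gene called higher (1.01 ± 0.35). Npc1l1, the cholesterol uptake gene, was not called (adjusted p = 0.14). Fabp2 (0.63 to 0.81) was not called without GFP 2, GFP 3, WT 1 or WT 2, nor with the most abundant genes left out of library sizes, no filter on low counts, only the 5 libraries fitted or the GC content and length trend removed. Apoc2 (0.44 to 1.00) was not called without GFP 2, GFP 3 or WT 1, nor with only the 5 libraries fitted or only the 7 ileum libraries fitted. Npc1l1 was called lower with no filter on low counts, only the 5 libraries fitted or only the 7 ileum libraries fitted.

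Of 20 enterocyte and regional transcription factor genes, 13 fell and none rose (median -0.94). Cdx2, a master gene of intestinal identity, had 25.4, 20.6 and 15.4 CPM in the GFP libraries, against 236 and 199 CPM in the WT libraries (log2 difference -3.41 ± 0.24, SE, adjusted p = 1.8e-07). Maf had 5.79, 4.90 and 5.14 CPM in GFP cells and 189 and 91.1 CPM in WT crypts (log2 difference -4.74 ± 0.47, SE, adjusted p = 9.4e-06), and Creb3l3 had 1.02, 0.857 and 1.14 CPM in GFP cells and 49.3 and 51.9 CPM in WT crypts (log2 difference -5.65 ± 0.33, SE, adjusted p = 4.2e-08). No GFP library came near a WT library for these. The nuclear receptor gene Hnf4a fell by 0.60 on the log2 scale. Hnf4a (-0.56) was not called without WT 1, nor with no filter on low counts, only the 5 libraries fitted, only the 7 ileum libraries fitted or the GC content and length trend removed.

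**Figure D4:**
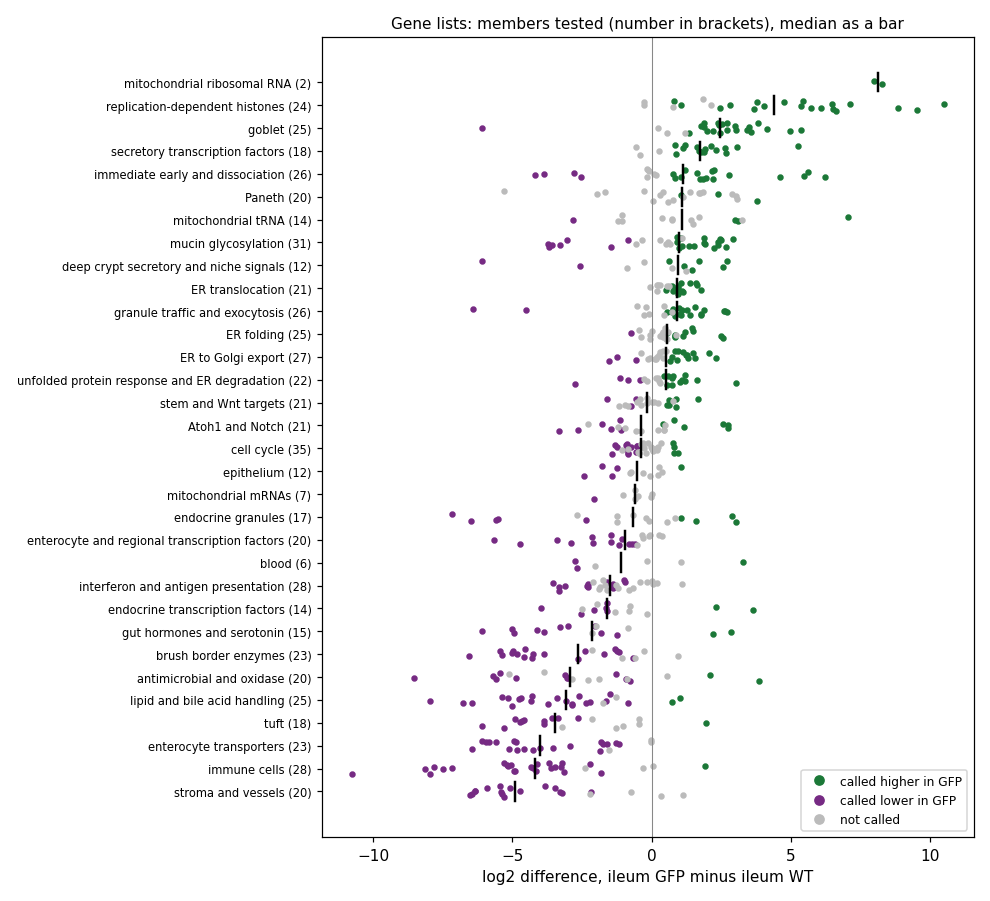
Log2 difference of each tested member (x axis, ileum GFP minus ileum WT) for 32 gene lists (y axis, ordered by median), with members called higher in green, lower in purple and not called in grey, and a black bar at each median. The goblet median is 2.44 and the enterocyte transporter median -4.02.

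More host defence genes fell than rose. Of 20 antimicrobial and oxidase genes, 11 fell and 2 rose (median -2.93). The lectin Reg3b had 447, 348 and 479 CPM in the GFP libraries, against 18529 and 5981 CPM in the WT libraries (log2 difference -4.85 ± 0.66, SE, adjusted p = 8.0e-05), and Reg3g had 821, 628 and 1052 CPM in GFP cells and 10612 and 3870.0 CPM in WT crypts (log2 difference -3.12 ± 0.60, SE, adjusted p = 0.0010). The maturation factor of the oxidase, Duoxa2, fell by 5.69. Nos2 fell too, from unequal crypt libraries, with 7.49, 3.43 and 2.28 CPM in the GFP libraries, against 362 and 14.1 CPM in the WT libraries (log2 difference -5.45 ± 1.12, SE, adjusted p = 0.0032). The 2 that rose were Lypd8, which keeps bacteria off the epithelium (2.10 ± 0.51), and the ribonuclease gene Ang, with 105, 133 and 145 CPM in GFP cells and 6.25 and 11.5 CPM in WT crypts (log2 difference 3.85 ± 0.26, SE, adjusted p = 1.3e-07).

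Of 28 interferon and antigen presentation genes, 12 fell and none rose (median -1.49); without WT 1, 4 fell. Tap2 had 1.53, 4.16 and 2.43 CPM in the GFP libraries, against 51.1 and 14.3 CPM in the WT libraries (log2 difference -3.55 ± 0.50, SE, adjusted p = 0.00013), with WT 1 above WT 2. Cd74, which handles antigen for presentation, was not called (adjusted p = 0.24). Cd74 was called lower with no filter on low counts, only the 5 libraries fitted or only the 7 ileum libraries fitted.

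Most markers of cells outside the epithelium were lower in the sorted cells. Of 28 immune genes, 24 fell and 1 rose (median -4.20), and of 20 stromal and vessel genes tested 16 fell and none rose (median -4.90). Immune genes summed to 71.4 to 82.5 CPM in GFP cells and 95.1 to 713 CPM in WT crypts, and Itgam and Lyz2, which were not called, held most of the GFP sum. No count was seen in any GFP library for 5 members, Cd3d, Cd8b1, C1qa, C1qb and C1qc. Ptprc, the leukocyte gene CD45, had 2.04, 0.612 and 0.999 CPM in the GFP libraries, against 51.0 and 20.7 CPM in the WT libraries (log2 difference -4.94 ± 0.47, SE, adjusted p = 3.3e-06). The stromal list summed to 20.0 to 25 CPM in GFP cells and 62.4 to 210.0 CPM in WT crypts, and Col3a1 had 0.170, 0.245 and 0 CPM in GFP cells and 16.7 and 11.3 CPM in WT crypts, a WT to GFP count ratio of 99.0 (95% counting interval 33.6 to 482). Without WT 1, 8 immune and 8 stromal genes were called lower. Cd68 was the immune gene that rose (1.93 ± 0.62). Cd3d (-4.47), Cd8b1 (-4.87), C1qa (-3.92) and C1qc (-3.01) were not called without WT 1. Cd68 (1.14 to 1.58) was not called without GFP 1 or WT 2, nor with only the 5 libraries fitted or only the 7 ileum libraries fitted. Itgam (1.23) was called higher without WT 1.

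Of 6 blood genes tested, Alas2 was called higher, and Hba-a1 and Hba-a2 lower. Hba-a1 and Hba-a2 are near-identical copies and uncertain for that reason. Of 12 pan-epithelial genes, 4 fell and 1 rose (median -0.53). Epcam and Cdh1 were not called, at 856, 1498 and 1338 CPM in GFP cells and 1759 and 1318 CPM in WT crypts for Epcam. Krt8 had 189.7, 446 and 367 CPM in GFP cells and 1909 and 1663 CPM in WT crypts (log2 difference -2.42 ± 0.32, SE, adjusted p = 4.0e-05), and its partner Krt18 had 438, 922 and 941 CPM in GFP cells and 274 and 458 CPM in WT crypts (log2 difference 1.07 ± 0.31, SE, adjusted p = 0.010). Krt8 did not overlap between the groups and Krt18 did. Alas2 (2.32) was not called without WT 2. Hba-a1 (-1.68) was not called without WT 1. Hba-a2 (-2.58 to -1.18) was not called without GFP 1, GFP 2 or WT 1, nor with only the 7 ileum libraries fitted, protein-coding genes only or the GC content and length trend removed. Krt18 (0.73) was not called without WT 1, nor with only the 5 libraries fitted.

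Genes that respond within minutes to handling of cells were also raised. Of 26 immediate early and dissociation genes, 16 rose and 4 fell (median 1.13). Egr1 had 272, 537 and 375 CPM in the GFP libraries, against 10.9 and 6.98 CPM in the WT libraries (log2 difference 5.46 ± 0.49, SE, adjusted p = 3.4e-06), Fosb had 68.8, 75.4 and 89.8 CPM in GFP cells and 1.37 and 0.665 CPM in WT crypts (log2 difference 6.23 ± 0.40, SE, adjusted p = 1.1e-07), and Dusp1 had 62.1, 161 and 128 CPM in GFP cells and 4.80 and 4.74 CPM in WT crypts (log2 difference 4.62 ± 0.37, SE, adjusted p = 7.6e-07). No GFP library overlapped a WT library for these. Jun, Atf3 and Egr2 rose as well (2.25, 2.77 and 5.63). The groups also differed in sorting, and its part in these genes was not tested.

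Other early genes fell. Jund had 8.51, 7.71 and 11.8 CPM in the GFP libraries, against 144 and 126 CPM in the WT libraries (log2 difference -3.85 ± 0.19, SE, adjusted p = 1.8e-08), and Junb, Ier2 and Socs3 had log2 differences of -2.78, -2.53 and -4.20. With the GC content and length trend of each library removed, these became -1.99 for Jund, -1.49 for Junb, -1.56 for Ier2 and -3.32 for Socs3, all still called. Over protein-coding genes the median log2 difference was 0.26 in the fifth with the lowest GC content (31.0 to 44.0%) and -0.72 in the fifth with the highest (55.5 to 74.2%).

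Most mitochondrial ribosomal RNA, replication-dependent histone and small RNA genes tested were called higher in the sorted cells. The labels name no step that selects RNA, and the part of library preparation was not tested. The mitochondrial ribosomal RNA mt-Rnr2 had 299654, 331959 and 357151 CPM in the GFP libraries, against 1168 and 962 CPM in the WT libraries (log2 difference 8.27 ± 0.45, SE, adjusted p = 3.0e-08), and mt-Rnr1 behaved alike (8.00 ± 0.49). Of 7 mitochondrial messenger RNAs tested, in contrast, 1 fell, mt-Nd6 (-2.06 ± 0.41), and none rose, with 4 lower without GFP 3 and 2 without WT 1. The most abundant, mt-Co1, was not called and had 4078, 9384 and 9555 CPM in GFP cells and 9589 and 12093 CPM in WT crypts. Mitochondrial transfer RNA genes rose in 3 of 14 cases (21.4%, against 24.6% over all genes) and fell in 1 (7.14%, against 28.1%), at low counts. Leaving out GFP 1 moved the number called higher to 5, and leaving out GFP 3, WT 1 or WT 2 moved it to 1. The number called lower was 4 without GFP 3 and 0 without GFP 1, GFP 2 or WT 2. mt-Co1 was called lower with the GC content and length trend removed.

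Of 24 replication-dependent histone genes tested, whose messages lack a poly(A) tail in dividing cells, 19 rose and none fell (median 4.40). Hist1h4d had 163, 105 and 127 CPM in the GFP libraries, against 0.0762 and 0.0831 CPM in the WT libraries, a GFP to WT count ratio of 1620.1 (95% counting interval 448 to 13385) on 2 counts in WT crypts. Hist1h1e had 83.1, 48.8 and 51.0 CPM in GFP cells and 0.152 and 0.0831 CPM in WT crypts, a ratio of 496 (95% counting interval 169 to 2407). All 3 sorted libraries stood far above both crypt libraries for these genes.

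Of 76 small RNA genes tested, 46 rose and 1 fell (median 3.31), with 29 called higher without GFP 1, and 2 called lower without GFP 1 or WT 1. Of 245 genes annotated as antisense, 139 rose and 8 fell (median 2.22), and whether counting used strand is not stated in the sources used, so reads of an antisense gene and of its partner cannot be told apart. Cytosolic ribosomal protein genes rose in 35 of 79 cases and fell in 11 (median 0.69). Nuclear genes of oxidative phosphorylation were mixed, with 16 higher (20.3%) and 22 lower (27.8%) of 79 (median -0.19). These shares were near the 24.6% and 28.1% over all genes. Without WT 1, 8 oxidative phosphorylation genes were called higher. Without WT 2, 14 of them were called lower, and 7 ribosomal protein genes.

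The 12 largest rises among protein-coding genes with a mean of at least 10 CPM and no overlap were 4 histone genes, 3 early response genes (Egr1, Egr2 and Fosb) and 5 others. AY761184, a defensin-related gene, had 9165, 8388 and 7488 CPM in the GFP libraries, against 50.5 and 214 CPM in the WT libraries (log2 difference 5.98 ± 2.01, SE, adjusted p = 0.037). The nucleotide receptor gene P2ry4 had 313, 457 and 350.4 CPM in GFP cells and 10.4 and 3.91 CPM in WT crypts (log2 difference 5.70 ± 0.77, SE, adjusted p = 0.00019). Fras1, an extracellular matrix gene, had 36.8, 53.4 and 58.2 CPM in GFP cells and 0.609 and 1.5 CPM in WT crypts (log2 difference 5.56 ± 0.68, SE, adjusted p = 3.3e-05). The galactosyltransferase gene B3galt2 had 18.6, 8.32 and 9.28 CPM in GFP cells and 0.0762 and 0.0831 CPM in WT crypts, a count ratio of 145 (95% counting interval 39.6 to 1201). In each case the lowest sorted library stood well above the higher crypt library. Serpina1b, 1 of several near-identical copies, had 89.2, 199.5 and 232 CPM in GFP cells and 4.49 and 0.0831 CPM in WT crypts and is uncertain for that reason. AY761184 (5.26 to 7.35) was not called without GFP 1, GFP 2, GFP 3, WT 1 or WT 2. Serpina1b (5.26 to 10.82) was not called without WT 1 or WT 2.

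Among the 12 largest falls, several genes differed several fold between the crypt libraries. Jchain, the joining chain of immunoglobulins, had 0, 0 and 0.143 CPM in the GFP libraries, against 203 and 2.74 CPM in the WT libraries, and Slc6a14 had 0.341, 0 and 0 CPM in GFP cells and 333 and 5.90 CPM in WT crypts; WT 1 was far above WT 2 in both. Pla2g4c had 3.41, 0.245 and 1.86 CPM in the GFP libraries, against 36.9 and 5249 CPM in the WT libraries (log2 difference -10.57 ± 2.15, SE, adjusted p = 0.0032), and Pcsk6 had no count in GFP cells against 0.609 and 23.2 CPM in WT crypts, so WT 2 was far above WT 1 in these. Saa1, Sprr2a3 and Gsdmc2 were unequal in them too. Jchain (-5.55) was not called without WT 1.

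Some large falls were alike in both crypt libraries. Hnrnpa0, which encodes an RNA-binding protein, had 0, 0.245 and 0.286 CPM in the GFP libraries, against 100.2 and 91.6 CPM in the WT libraries (log2 difference -8.90 ± 0.29, SE, adjusted p = 3.4e-10). The fall was not particular to ileum. In colon Hnrnpa0 had a mean of 0.162 CPM in GFP cells and 73.5 CPM in WT crypts (log2 difference -8.70). In ileum KO crypts it had 87.3 and 91.4 CPM. The part of sorting and library preparation in this fall was not tested. Mgat4c, an N-glycan branching gene, had 1.87, 2.20 and 2.86 CPM in the GFP libraries, against 374 and 292 CPM in the WT libraries (log2 difference -7.16 ± 0.31, SE, adjusted p = 7.0e-09). Egln3, at unequal levels in the crypt libraries, had 0.341, 1.22 and 0.143 CPM in GFP cells and 49.9 and 153 CPM in WT crypts (log2 difference -7.34 ± 0.56, SE, adjusted p = 1.2e-06), and Cidec, a lipid droplet gene, had a WT to GFP count ratio of 212 (95% counting interval 37.8 to 8423).

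Per kilobase of exon, the most abundant protein-coding gene of GFP cells was Lyz1, with 34835 CPM per kilobase against 4169.7 in WT crypts. Next came Defa24 (24664, against 14621), Defa30 (20834, against 5775) and Zg16 (20287, against 647 CPM per kilobase). AY761184, Tff3, Spink4, Agr2, Defa37 and Guca2a completed the first 10 of the sorted cells, of which 5 are on the goblet list and the rest are lysozyme, defensins and a defensin-related gene. In WT crypts the first 10 by the same scale were Defa24, Reg3b, mt-Co1, mt-Cytb, Defa30, mt-Nd1, Itln1, Lyz1, Ang4 and Fabp6. Reg3b had 372 CPM per kilobase in GFP cells and 10732 in WT crypts. Defa37 was called higher with no filter on low counts, only the 5 libraries fitted or only the 7 ileum libraries fitted. mt-Cytb (-0.85) was called lower without GFP 3, and with the most abundant genes left out of library sizes, the GC content and length trend removed or the DESeq2 Wald test.

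Ileum KO crypts are given beside these for the leading secretory genes. That comparison shares the WT libraries, so only levels are set side by side. Muc2 was at 32.8 and 9.55 CPM in KO crypts, Spdef at 2.03 and 1.13 CPM, Agr2 at 59.7 and 29.5 CPM and Lyz1 at 567 and 363 CPM. Sct was at 5.94 and 6.39 CPM and Sis at 2848 and 2312 CPM. The secretory genes named here were thus highest in GFP cells and lowest in KO crypts, and Sis lowest in GFP cells.

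The same contrast in colon used libraries that the ileum contrast does not share. The date-like numbers of ileum GFP 2 and GFP 3 and the running numbers of both ileum WT libraries recur among the colon tables, so libraries of the 2 tissues may come from the same animals, which the fit does not model. The difference between the 2 effects was called for 136 genes in which ileum was the more positive (0.89%) and 199 in which it was the more negative (1.3%). The goblet genes Ano7, Bcas1 and Sytl2 were among the 136. Ano7 differed by 1.55 ± 0.32, SE, adjusted p = 0.025: in ileum it had 516 ± 138 CPM in GFP cells (SD, n = 3) and 42.9 ± 5.0 CPM in WT crypts (SD, n = 2), and in colon 168 ± 23.1 CPM in GFP cells (SD, n = 3) and 40.7 ± 9.97 CPM in WT crypts (SD, n = 2). Those of Bcas1, chosen after its values were seen, and Sytl2 were 1.87 and 1.38. Of the granule traffic list 6 members were called, all more positive in ileum; Myo5c differed by 1.85 ± 0.31, SE, adjusted p = 0.0073. Of the secretory factors, Klf4 and Tcf7l2 were called (2.62 and 2.05); Klf4 had 240.5 ± 78.8 CPM in GFP cells (SD, n = 3) and 136 ± 11.4 CPM in WT crypts (SD, n = 2) in ileum, and 129 ± 17.3 CPM in GFP cells (SD, n = 3) and 447 ± 35.6 CPM in WT crypts (SD, n = 2) in colon. In 10 fits that each left out 1 ileum or colon library, Myo5c, Klf4 and Tcf7l2 were called every time. Of the other goblet and granule genes named, Ano7, Mlph and Sytl4 were not called without ileum GFP 2, ileum GFP 3, ileum WT 1, colon GFP 2, colon GFP 3 or colon WT 2, Bcas1 was not called without ileum GFP 2, ileum GFP 3, ileum WT 1, ileum WT 2, colon GFP 2, colon GFP 3, colon WT 1 or colon WT 2, and Sytl2 was not called without ileum GFP 2, ileum GFP 3, ileum WT 1, colon GFP 2, colon GFP 3, colon WT 1 or colon WT 2.

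On the other side were 6 of 23 brush border genes, 5 of 23 transporters and 4 of 25 lipid genes, all more negative in ileum. Anpep differed by -6.60 ± 0.83, SE, adjusted p = 0.0017. In ileum it had 194 ± 68.5 CPM in GFP cells (SD, n = 3) and 3682 ± 2238 CPM in WT crypts (SD, n = 2), and in colon 63.7 ± 29.2 CPM in GFP cells (SD, n = 3) and 12.5 ± 9.59 CPM in WT crypts (SD, n = 2). Slc6a19 differed by -6.34 ± 0.61, SE, adjusted p = 0.00014, with 1.39 ± 0.964 CPM in GFP cells (SD, n = 3) and 1.6 ± 0.915 CPM in WT crypts (SD, n = 2) in colon. Anpep was thus lower in GFP cells in ileum and higher in GFP cells in colon. Pdzk1, the scaffold of apical transporters, had the largest fitted difference (-9.81), which depends on the prior count because colon WT crypts had no count, and Treh, Slc7a15, Susd2, Cubn and Gnai1 were the others of the 8 largest. Anpep, Slc6a19, Pdzk1, Treh, Slc7a15 and Gnai1 were called whichever library was left out, and Susd2 and Cubn were not called without colon WT 2.

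Of the 8 largest in the other direction, Krt20, a keratin of surface cells, had 505 ± 242 CPM in GFP cells (SD, n = 3) and 1048 ± 500.0 CPM in WT crypts (SD, n = 2) in ileum, and 40.7 ± 17.6 CPM in GFP cells (SD, n = 3) and 1011 ± 390.0 CPM in WT crypts (SD, n = 2) in colon (difference 3.58 ± 0.70, SE, adjusted p = 0.023). Lyz2, Trim40 and Trpv3 had colon log2 differences of -6.08, -4.84 and -3.15 (tissue differences 5.76, 3.58 and 3.48). Myof rose in ileum (2.13 ± 0.30) and had a colon log2 difference of -1.41. Casp14, B3galt2 and Mfsd7a were the rest. Trim40, Myof, Casp14 and Mfsd7a were called whichever library was left out, whereas Krt20 was not called without ileum WT 2 or colon WT 1, Lyz2 was not called without colon WT 2, Trpv3 was not called without ileum GFP 2 or colon WT 1, and B3galt2 was not called without ileum WT 1, ileum WT 2, colon GFP 2, colon GFP 3 or colon WT 2. Leaving out ileum GFP 1 moved the counts of 136 and 199 to 299 and 373, GFP 2 to 70 and 136, GFP 3 to 84 and 131, and WT 2 to 85 and 199. Leaving out colon GFP 1 moved them to 221 and 286, colon GFP 2 to 65 and 123, colon WT 1 to 49 and 100, and colon WT 2 to 54 and 83.

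**Figure D5:**
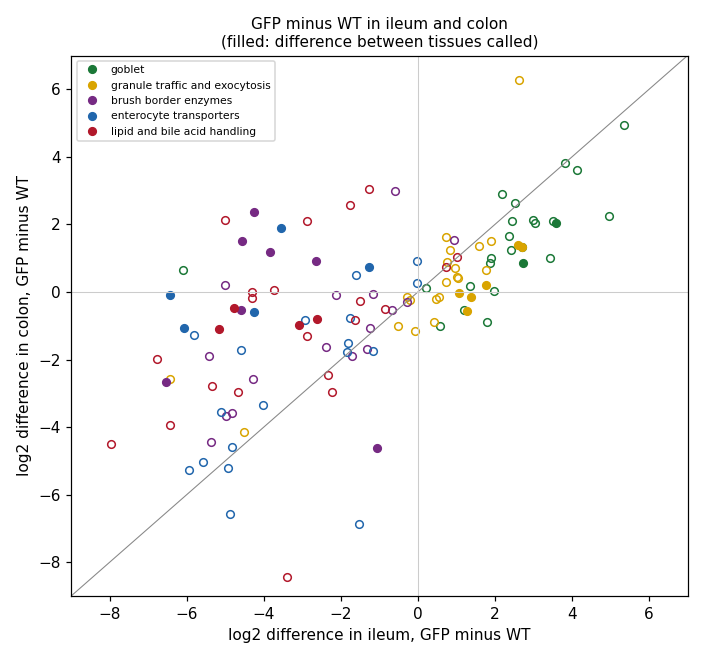
Log2 difference GFP minus WT in ileum (x axis) and in colon (y axis) for the members of 5 lists, filled where the difference between tissues was called, with the line of equal effect in grey. Filled brush border, transporter and lipid genes lie above the line except Krt20, and filled goblet and granule genes lie below it.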

How the data were processed

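Raw read counts per Ensembl gene were deposited by the authors, 1 table per library. The submitters' processing notes name mm9, TopHat 1.4.1 and HTSeq. Which HTSeq release and annotation were used, and whether counting used strand, is not given in the sources used here. Rows that name no gene stayed out of library sizes and tests, and those outside genes held 9.30 to 52.3% of uniquely placed reads. Symbols, types, lengths and GC content were joined by Ensembl ID from GENCODE M21 (GRCm38), with 31021 of 36536 genes given a symbol and no coordinates carried over.

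The main test was edgeR 4.0.16 (R 4.3.3), a quasi-likelihood fit of all 14 libraries by group with TMM scaling, filterByExpr and robust dispersion, two-sided, on 15274 genes, called at an adjusted p under 0.05 over all of them. It was checked on simulated counts in which few genes were shifted, as many up as down, between otherwise equal groups. That check does not cover groups that differ in as many genes and RNA classes as these. Alternatives were other scaling, filters, libraries and genes in the fit, GC content and length offsets, a replicate block, DESeq2 1.42.0 and leaving out each library. Intervals and floors cover counting error only. The members and gene lists were chosen with earlier results of these data known. Some genes are not reported here and were left out of the gene lists, whatever their values. Genes were named by rule: Atoh1, the 12 largest rises and falls without overlap, the 10 most abundant per kilobase in each group, leading called and uncalled members of each list, all members of the Notch and regulator lists, and the 8 largest tissue differences each way. Those outside it are said to be chosen after their values were seen.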

Additional observations from a re-analysis of the deposited data

Results flagged for a closer look

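Among the genes named above, the GFP minus WT effect differed between ileum and colon for 35, by an interaction term tested in edgeR over all 15274 genes at an adjusted p under 0.05. The values are the ileum log2 difference minus the colon one. It was more positive in ileum for Casp14 (5.78), Lyz2 (5.76), B3galt2 (4.0), Mfsd7a (3.98), Trim40 (3.58), Krt20 (3.58), Myof (3.54), Trpv3 (3.48), Fosb (2.74), Klf4 (2.62), Tcf7l2 (2.05), Bcas1 (1.87), Myo5c (1.85), Mlph (1.56), Ano7 (1.55), Sytl2 (1.38) and Sytl4 (1.20). It was more negative in ileum for Pdzk1 (-9.81), Anpep (-6.60), Slc6a19 (-6.34), Treh (-6.06), Slc7a15 (-6.01), Susd2 (-5.75), Gnai1 (-5.54), Cubn (-5.44), Slc26a6 (-5.0), Egln3 (-4.76), Mttp (-4.07), Ggt1 (-3.87), Slc5a1 (-3.67), Fut2 (-3.49), Gcnt1 (-3.38), Mgat4c (-3.34), Creb3l3 (-2.95) and St3gal4 (-1.66). Where colon crypts had no count, as for Pdzk1, the size depends on the prior count. In fits that each left out 1 of the 10 GFP and WT libraries, 19 of these genes were called every time and 16 lost the call at least once, namely Ano7, B3galt2, Bcas1, Creb3l3, Cubn, Gcnt1, Ggt1, Krt20, Lyz2, Mlph, Mttp, St3gal4, Susd2, Sytl2, Sytl4 and Trpv3.

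Reads placed uniquely but outside annotated genes, which enter no comparison, made up 27.8 to 52.3% in the GFP libraries and 9.30 to 11.7% in the WT libraries. Their source was not tested.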

How the results depend on the processing

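The main counts of 3762 genes higher and 4296 lower stayed within 1.5 times under the alternatives run. Which genes were called also changed. Of the main calls, 74.3% were also called with only the 5 libraries fitted, and 85.0% with the 7 ileum libraries. The share was 82.3% with the GC content and length trend removed, and 77.9% with the replicate block as well. DESeq2 size factors gave 99.2%. Some fits tested fewer genes. Leaving out each ileum GFP or WT library in turn, and for the tissue difference each colon GFP or WT library as well, an alternative chosen after seeing the data, counts of called genes ranged as follows: tissue difference higher 49 to 299 (against 136), tissue difference lower 83 to 373 (against 199), Atoh1 and Notch lower 3 to 8 (against 6), endocrine transcription factors lower 3 to 6 (against 6), Paneth higher 1 to 5 (against 3), tuft lower 1 to 18 (against 11), stem and Wnt targets higher 3 to 5 (against 6), ER translocation higher 9 to 19 (against 14), ER folding higher 6 to 19 (against 10), unfolded protein response and ER degradation higher 7 to 14 (against 12), interferon and antigen presentation lower 4 to 16 (against 12), immune cells lower 8 to 25 (against 24), stroma and vessels lower 8 to 17 (against 16), blood lower 0 to 3 (against 2), mitochondrial mRNAs lower 1 to 4 (against 1), mitochondrial tRNA higher 1 to 5 (against 3), small RNA genes higher 29 to 52 (against 46) and nuclear oxidative phosphorylation lower 14 to 24 (against 22). With no filter on low counts, the tissue difference had 430 genes higher and 663 lower, 11 Paneth genes were higher, 17 tuft, 22 interferon and 2 mitochondrial messenger genes lower, and 6 mitochondrial transfer RNA and 107 small RNA genes higher; more genes were tested. With DESeq2 the tissue difference had 382 higher and 473 lower, and 3 mitochondrial messenger genes were lower. Fitting only the 5 libraries gave 8 Paneth, 2 stem, 6 folding and 1 mitochondrial transfer RNA gene higher, and 12 immune, 10 stromal and 1 blood gene lower. Fitting the 7 ileum libraries gave 9 Paneth and 1 mitochondrial transfer RNA gene higher and 1 blood gene lower, and protein-coding genes only gave 1 blood gene lower. With the GC content and length trend removed, 3 stem and 1 mitochondrial transfer RNA gene were higher, and 2 Notch, 1 blood and 5 mitochondrial messenger genes lower. With the replicate block, 3 mitochondrial messenger genes were lower and 1 transfer RNA gene higher; with that trend removed as well, 2 Notch, 1 blood and 5 mitochondrial messenger genes were lower and 1 transfer RNA gene higher. Same-numbered libraries hardly deviated together (correlations 0.038 and 0.036 over genes). With 2 WT libraries, deviations from their mean mirror each other, so the other pairings give the same values with opposite sign. These correlations cannot tell whether same-numbered libraries share an animal or a day, which the labels do not state. The block called 3786 genes higher and 4229 lower. Of the named genes, AY761184 (adjusted p = 0.053), Fabp2 (adjusted p = 0.070), Fcgbp (adjusted p = 0.086), Maml1 (adjusted p = 0.055), Snap25 (adjusted p = 0.13) and St6galnac6 (adjusted p = 0.099) missed the threshold with the block. The cause of these moves was not tested. Over all genes, 23 were called with opposite signs in the main fit and with the GC content and length trend removed. With the replicate block as well, 28 were. Among the named genes, log2 differences changed sign only for genes not called in the fit reported. With the replicate block, Ang4 was at 0.39. With the replicate block and that trend removed, Ang4 was at 0.14 and Cdhr5 at 0.17. Cdhr5 was at 0.27 with the GC content and length trend removed, and Itgam at -0.0093 with no filter on low counts. Signs of named genes not called also changed when libraries were left out. Leaving out libraries, their ranges were Ang4 -1.21 to 3.07, Cdhr5 -0.54 to 0.027, Defa24 -0.044 to 2.55, Itgam -0.58 to 1.23, Itln1 -0.17 to 2.27, Lgr5 -0.16 to 1.10, Lyz2 -0.98 to 0.92, Pou2f3 -1.93 to 1.5, Reg4 -1.88 to 5.0, Trpv3 -0.37 to 1.70 and mt-Nd1 -0.34 to 0.33. With 2 crypt libraries that differ in tuft, Paneth, immune and stromal genes, results on those genes rest in part on 1 library, and genes with few counts allow little precision.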
